A study of Mus musculus with 47 samples.

Results

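Single induced pluripotent stem cells (iPSCs) with high and with low levels of Dppa3 RNA were compared gene by gene. Dppa3, also called Stella or PGC7, is a maternal-effect gene whose protein binds UHRF1 and limits maintenance DNA methylation. It is known as a marker of primordial germ cells and of naive pluripotency, and it is known to vary from cell to cell in mouse embryonic stem cells grown with serum and LIF. The 47 cells of 1 plate were ranked by their Dppa3 counts of both alleles divided by the total count of both alleles of the cell, with ties ordered by well name. The 15 highest cells (Dppa3-high) and the 15 lowest cells (Dppa3-low) form the comparison, 30 of 47 cells, and the 17 cells between them are called the middle. The groups were therefore chosen by a measured value, and every Dppa3 value given here describes that choice.

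The methods describe iPSCs from female mouse embryonic fibroblasts of a cross between a Mus mother with an X-linked eGFP transgene and a Cast father, reprogrammed in general with lentiviral Oct4, Sox2, Klf4 and c-Myc. The labels give serum-containing mouse ESC medium with LIF and ascorbic acid for these cells, whereas for iPSC controls the methods describe later passages without ascorbic acid, and which applies to this plate was not settled. The cells were sorted 1 per well into a GpC methylase mix, and their polyadenylated RNA was amplified by the G&T-seq procedure. All 47 cells carry the same cell type label and no label of treatment or time, and the passage, the clone and the culture of each cell are not given. They differ in X class, which the names of the count columns give. A cell labelled X-Mus X-Cast has reads from both X chromosomes, a cell labelled X-Cast O-Mus has a Cast X and no Mus X, and a cell labelled X-Mus O-Cast has a Mus X and no Cast X.

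The cells of this plate are not replicates of a culture. No p-value or standard error is therefore given, and medians, ranges and folds describe these 47 cells. Totals ran from 71682 to 216451 allelic counts per cell, with a median of 167041, over 13947 genes in the table. The X class read from the Mus share of X-linked counts matched the label in all 47 cells, which is no independent check, since the classes were themselves read from X-linked allelic reads. Pou5f1, the gene of the pluripotency factor OCT4, had reads in all 15 Dppa3-high and all 15 Dppa3-low cells. Of the 21 fibroblast genes in the table, 8 had no read in any of the 47 cells, and Col1a2, Dcn and Postn were among them. Values are counts per 10000 allelic counts of the cell unless another scale is named.

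Dppa3 lies on chromosome 6 of GRCm38 (chr6:122626410-122630272, plus strand, a protein-coding gene). Its level ran from 10.6 to 71.1 with a median of 16.5 in the Dppa3-high cells, from 3.07 to 9.71 with a median of 5.21 in the middle cells, and from 0 to 3.05 with a median of 1.67 in the Dppa3-low cells. The ranges are separate because the ranking made them so. The Dppa3-high cells held 5366 of the 7177 Dppa3 counts of the plate (74.8%), and the Dppa3-low cells held 347 (4.83%). The last cell taken into the high group had a level of 10.6 and the first left out had 9.71. The last middle cell had 3.07 and the first cell of the low group 3.05, so that neither limit fell in a gap of the distribution. 4 cells had no Dppa3 read, 3 X-Mus X-Cast and 1 X-Cast O-Mus, and the floor of 3 counts corresponds to a level of 0.166 to 0.186 in them.

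The cell in well C04, of class X-Cast O-Mus, stood apart at 71.1, with 1398 Dppa3 counts. The next cell had 30.2. C04 alone contributed 26.1% of the Dppa3 counts of the high group. Its mitochondrial share of 9.09% was the lowest of the 47 cells, and its total of 196630 was above the median of the plate. Ranking the plate without C04, an alternative chosen after seeing the data, gave 198 genes at least 2-fold higher and 128 at least 2-fold lower in the comparison described below, against 218 and 131 with it.

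**Figure D1:**
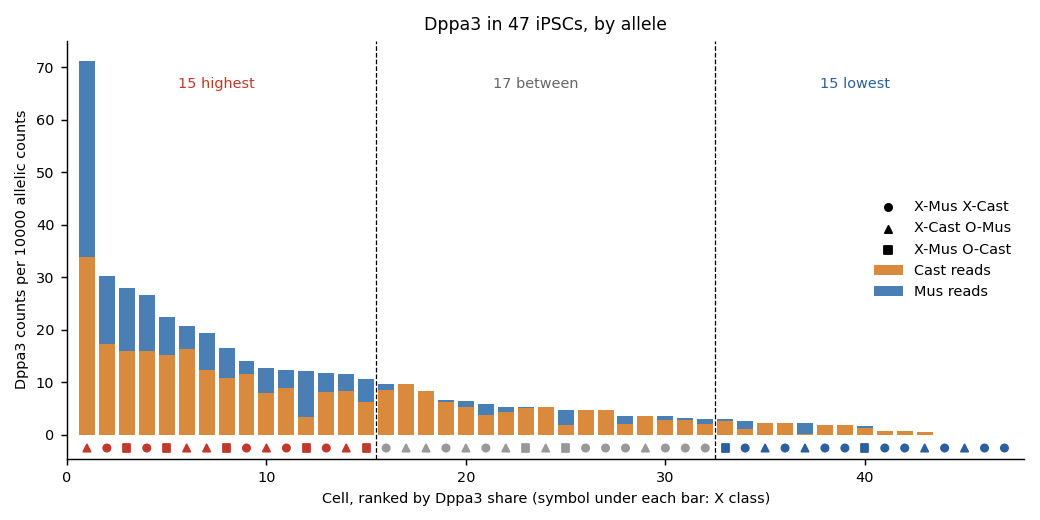
Dppa3 counts per 10000 allelic counts (y axis) of the 47 cells in rank order (x axis), with Cast reads in orange and Mus reads in blue stacked in each bar. Symbols under the bars give the X class and their colour the group (red high, grey middle, blue low). Mus reads are present in 15 of 15 high cells and in 6 of 15 low cells.

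The rank reflected both alleles, in unequal measure. Over the 47 cells Dppa3 had 4723 Cast and 2454 Mus counts, a Cast share of 65.8%, against a Cast share of 57.1% for all autosomal counts. Reads of both alleles were found in 32 cells, Cast reads alone in 11, Mus reads alone in 0, and neither in 4. Every Dppa3-high cell had Mus reads, whereas 9 of 15 Dppa3-low cells and 6 of 17 middle cells had none. The median Dppa3-low cell had 28 Dppa3 counts, which limits how well a missing allele can be read there.

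The Cast share of the Dppa3 counts was 59.2% in the Dppa3-high cells, 87.7% in the middle cells and 76.4% in the Dppa3-low cells, and it was 63.2% in the high group without C04. The Mus share was thus highest where Dppa3 was highest. Of the 82 Mus counts of the Dppa3-low cells, 41 came from the cell in well B04 and 28 from that in well F01, so that the low share rests on few cells. Of the 15 Dppa3-high cells, 12 were also among the 15 highest by Cast counts alone and 14 among the 15 highest by Mus counts alone. The rank correlation of the Cast and Mus levels over the 47 cells was 0.65. Both levels are divided by the same total of the cell.

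X-Mus X-Cast cells were fewer in the high group. Among the 15 Dppa3-high cells, 5 had both X chromosomes, 5 a Cast X alone and 5 a Mus X alone. The 15 Dppa3-low cells were 9, 4 and 2 cells of the same classes, and the 17 middle cells 9, 6 and 2. Cells with both X chromosomes made up 33.3% of the high group (95% Clopper-Pearson interval 11.8 to 61.6) and 60.0% of the low group (32.3 to 83.7). These intervals overlap. They cover counting error only and treat the cells as independent draws, so that they are no test of the difference. The median Dppa3 level of all 23 X-Mus X-Cast cells was 3.59, that of the 15 with a Cast X alone 6.53 and that of the 9 with a Mus X alone 10.6, with ranges of 0 to 30.2, 0 to 71.1 and 1.67 to 28.002 that overlap widely.

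The Dppa3-high cells were shallower. Their totals ran from 122296 to 212232 with a median of 149162, and those of the Dppa3-low cells from 147197 to 202060 with a median of 175131, which is 1.17 times as high. 7 of the 15 Dppa3-high cells lay below the lowest Dppa3-low cell. The median number of genes with a read was 4764 in the high and 4972 in the low cells. Over the 47 cells the rank correlation of the Dppa3 level with the total was -0.27, where the total is also the denominator of the level. The median mitochondrial share was 19.7% (9.09% to 26.7%) in the high and 22.9% (16.5% to 26.2%) in the low cells, and the median share of cytosolic ribosomal protein genes 3.75% and 3.52%. The part of the mitochondrial share in the differences between the groups was not tested, and values for cells of equal depth and for cells of 1 class are given with the genes. On the plate, 5 of the 8 cells in column 2 and 5 of the 8 in column 5 were Dppa3-high, against 5 of the other 31 cells, and 1 and 2 of the cells in these columns were Dppa3-low.

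The other genes were compared by the ratio of the mean level in the high cells to the mean level in the low cells. Of the 13947 genes, 3840 passed a minimum of 5 counts on average over the 47 cells and a read in at least 24 cells. Of these, 218 (5.68%) were at least 2-fold higher in the Dppa3-high cells and 131 (3.41%) at least 2-fold lower. The median log2 fold was 0.03, and 2030 of 3840 genes (52.9%) were above 0. With every cell thinned to 122296 counts the numbers were 227 and 125, and for differences of mean log2 (level plus 1), which compress low levels, they were 5 and 0. For none of the 3840 genes were the ranges of the high and low cells separate.

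Large folds were mostly found at low counts. Of the 1268 genes with a mean of 5 to 10 counts, 15.9% were at least 2-fold higher or lower, against 9.61% of 1114 genes with 10 to 20 counts, 4.09% of 930 genes with 20 to 50 counts and 0.568% of 528 genes with 50 or more. In addition, single cells carried many of them. Without genes for which 1 cell held over 25% of the summed level of its group, or whose medians did not point the same way as the means, 105 of the 218 and 89 of the 131 were left, and the 24 genes named by the size of their fold come from these. The cell in well B01 was the highest cell of its group for 41 of the 218 genes.

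**Figure D2:**
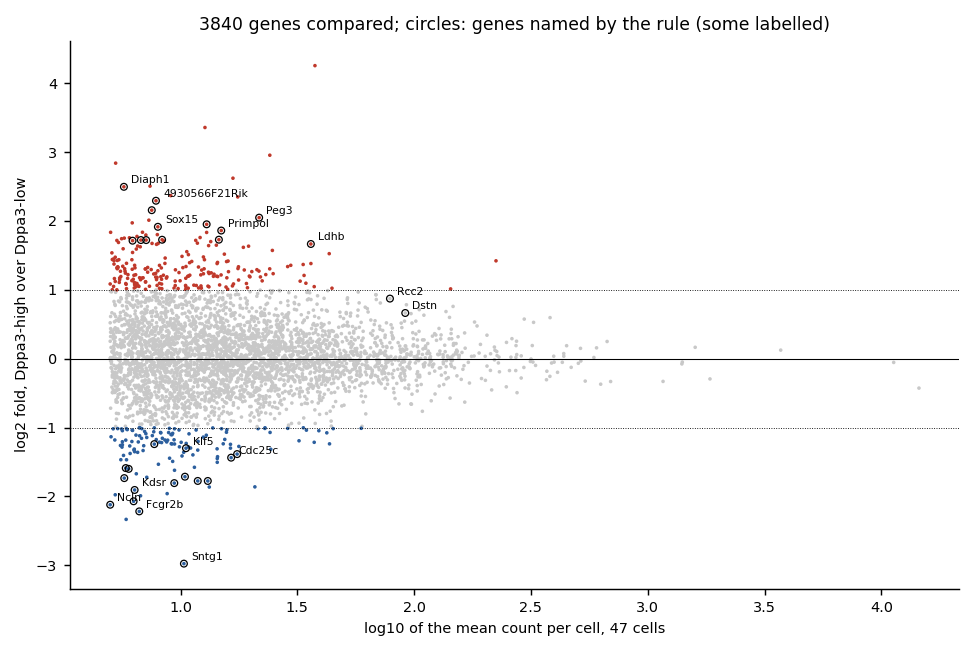
log2 fold of the mean level in 15 Dppa3-high cells over 15 Dppa3-low cells (y axis) against the log10 mean count per cell (x axis) for 3840 genes. Red points are the 218 genes at least 2-fold higher and blue points the 131 at least 2-fold lower, circled points are genes the text names by rule, and the spread narrows from left to right.

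The 12 genes of largest fold among those higher in the Dppa3-high cells had log2 folds of 1.71 to 2.50 and mean counts of 5.72 to 21.7 per cell. They were Diaph1, 4930566F21Rik, Ankhd1, Peg3, Gstm1, Sox15, Primpol, Tfap2c, Lpgat1, Flywch1, Ada and Zyg11b. 1 of them, Tfap2c, belongs to the primordial germ cell list and 1, Peg3, to the list of imprinted genes.

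Ankhd1, an ankyrin repeat and KH domain protein, followed Dppa3 most closely of all genes compared, with a rank correlation of 0.62 over the 47 cells. Its level ran from 0.207 to 1.88 with a median of 0.588 in the high cells and from 0 to 0.497 with a median of 0.167 in the low cells, a log2 fold of 2.16. All 15 high cells were above the low median, no low cell was above the high median, and 9 high cells were above every low cell. The middle cells had a median of 0.341, between those of both groups. Its summed counts were 197 in the high cells (95% Poisson interval 170 to 227) and 48 in the low cells (35.4 to 63.6), where the intervals cover counting error only. Of the 3840 genes, 8 had all 15 high cells above the low median.

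Diaph1, a formin that nucleates actin filaments, had the largest fold of these 12 genes (log2 2.50). Its level ran from 0 to 1.77 (median 0.654) in the high and from 0 to 1.10 (median 0.0993) in the low cells. 11 of 15 high cells were above the low median, and 4 high cells had no read. A single low cell in well E02 was at 1.10, and without it the log2 fold was 3.67. The uncharacterised 4930566F21Rik had reads in 13 high and 7 low cells, with medians of 0.955 and 0 (log2 fold 2.29), and nearly all of its reads were Mus, 214 of 218 in the high cells.

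Peg3, a paternally expressed imprinted gene of the zinc finger family, had 490 counts in the high cells (448 to 535) and 128 in the low cells (107 to 152). Its level ran from 0 to 5.97 with a median of 1.59 in the high and from 0 to 1.90 with a median of 0.124 in the low cells, a log2 fold of 2.05. It was above the low median in 14 of 15 high cells. The middle median was 0.232.

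Tfap2c, whose product AP-2 gamma acts in primordial germ cell specification, had a level of 0 to 4.99 with a median of 0.980 in the high and of 0 to 2.43 with a median of 0.128 in the low cells (log2 fold 1.73). 10 of 15 high and 8 of 15 low cells had a read, so that the groups differed more in level than in the number of cells. Sox15, a transcription factor of the SOX family, was read in 10 high and 9 low cells, and all 10 of those high cells were above every low cell (medians 0.848 and 0.179, log2 fold 1.91).

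Gstm1, a glutathione S-transferase, was read in all 15 high and in 10 low cells, with medians of 0.955 and 0.257 (log2 fold 1.95). Primpol, a primase and polymerase that restarts stalled DNA replication, had medians of 1.27 and 0.217 (log2 fold 1.86) and a rank correlation of 0.50 with Dppa3. Ada, adenosine deaminase, had medians of 0.712 and 0 (log2 fold 1.72, or 2.82 without the low cell in well B04). The other genes of this group, Lpgat1, Flywch1 and Zyg11b, had log2 folds of 1.71 to 1.73, and between 10 and 13 of the high cells were above the low median. Zyg11b is a substrate receptor of a ubiquitin ligase and Lpgat1 a lysophospholipid acyltransferase.

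3 further genes were named for a high rank correlation with Dppa3. Ldhb, the lactate dehydrogenase B subunit, had a correlation of 0.55, levels of 0.445 to 11.3 (median 2.05) in the high and of 0 to 5.55 (median 0.476) in the low cells, and a log2 fold of 1.67 that was 2.28 without the low cell in well E01. 1 cell, in well F05, held 25.1% of its summed level in the high group. Rcc2, a chromatin-associated regulator of mitosis, and Dstn, the actin-depolymerising protein destrin, were read in every cell of both groups. Their medians were 5.76 against 3.72 and 6.71 against 4.21, and their log2 folds were smaller, at 0.87 and 0.66. All 15 high cells were above the low median for both.

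The 3 largest folds among the higher genes belonged to genes that the naming rule left out because of single cells, and they were chosen here after their values were seen. Rhox6, an X-linked homeobox gene, had a log2 fold of 4.26 with levels of 0 to 37.1 (median 1.07) in the high and of 0 to 1.09 (median 0.119) in the low cells, and the high cell in well B02 held 45.8% of the sum. Without that cell the log2 fold was 3.47. Rhox6 is a member of a multigene cluster, as Lefty1 and Lefty2 are near copies of each other, and reads may be split between such copies. Hesx1, a homeobox gene of the anterior epiblast and forebrain, had a log2 fold of 3.36, with reads in 12 high and 3 low cells and 40.4% of the sum in the cell in well F06. A single low cell, in well C06, held 69.4% of the low sum, and leaving out 1 cell gave log2 folds of 2.71 (without F06) to 4.96 (without C06). Naaa, an acid amidase, had a log2 fold of 2.95, with reads in 12 high and 6 low cells and 33.4% of the sum in the cell in well G03.

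**Figure D3:**
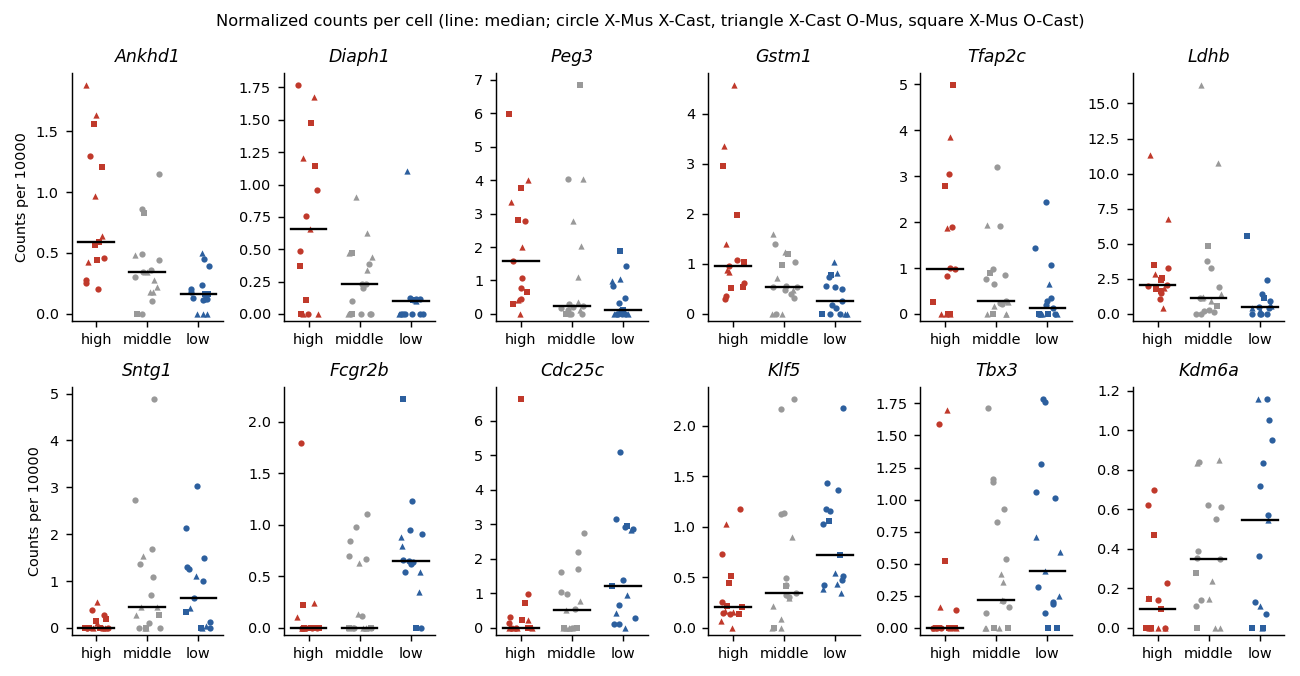
Level per cell (y axis, counts per 10000 allelic counts) of 6 genes higher (top row) and 6 genes lower (bottom row) in the Dppa3-high cells, for the high, middle and low cells (x axis). Points are cells, shapes their X class and lines the medians. The groups overlap in all 12 genes, and for Ankhd1 all 15 high cells lie above the low median.

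The 12 genes of largest fold among those lower in the Dppa3-high cells had log2 folds of -1.59 to -2.98 and mean counts of 5.00 to 13.1. They were Sntg1, Fcgr2b, Ncln, Ormdl1, Kdsr, Slc10a7, Elp6, Fkbp6, Foxn3, Smtnl1, Chmp2b and Kdm6a. For 9 of these 12 genes the median of the high cells was 0.

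Sntg1, a syntrophin, had the largest fold of these (log2 -2.98). Its level ran from 0 to 0.545 with a median of 0 in the high and from 0 to 3.04 with a median of 0.642 in the low cells, and its summed counts were 27 (17.8 to 39.3) and 217 (189 to 248). 12 of 15 low cells were above the high median, and the middle median was 0.438. Its fold was smaller inside the X classes, at -0.61 among the X-Mus X-Cast cells and -1.17 among the single-X cells. Fcgr2b, an Fc receptor for IgG, was read in 4 high and 13 low cells, with medians of 0 and 0.651 (log2 fold -2.22). Most of its high reads came from the cell in well E05, without which the log2 fold was -4.18. It also had the lowest rank correlation with Dppa3, -0.51.

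Ormdl1 and Kdsr both act in sphingolipid synthesis, the first as a regulator and the second as an enzyme. Ormdl1 had medians of 0 and 0.397 (log2 fold -2.07) and Kdsr of 0 and 0.257 (log2 fold -1.91). Ncln, the nicalin protein of the endoplasmic reticulum, was read in 8 high and 13 low cells with medians of 0.104 and 0.359 (log2 fold -2.12). Elp6, a subunit of the Elongator complex, had medians of 0.236 and 0.783 (log2 fold -1.78).

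Fkbp6, an immunophilin of male meiosis and piRNA metabolism, was read in 5 high and 10 low cells, with medians of 0 and 1.16 (log2 fold -1.77, or -2.44 without the high cell in well F02). Its difference lay on the Mus allele, with an allelic log2 fold of -4.13 for Mus and 0.15 for Cast. Smtnl1 had medians of 0 and 0.669 (log2 fold -1.71, or -2.40 without the high cell in well E05). Slc10a7, Foxn3 and Chmp2b had log2 folds of -1.81, -1.73 and -1.60. Chmp2b is a subunit of the ESCRT-III membrane remodelling complex.

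Kdm6a is an X-linked H3K27 demethylase known to escape X inactivation. Its level ran from 0 to 0.696 with a median of 0.0942 in the high and from 0 to 1.16 with a median of 0.546 in the low cells (log2 fold -1.59), and the counts were 41 (29.4 to 55.6) and 131 (110 to 155). The allelic log2 fold was -3.08 for Cast and -0.45 for Mus. The low group has more cells with both X chromosomes, and the high group more cells with a Mus X alone. Inside the class with both X chromosomes the log2 fold of the 7 highest over the 7 lowest cells by Dppa3 was -1.08, and inside the single-X cells that of the 8 highest over the 8 lowest was -1.43.

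4 more genes were named for a low rank correlation. Cdc25c, the phosphatase that activates CDK1 at mitotic entry, had a correlation of -0.50 and was read in 7 high and 14 low cells, with medians of 0 and 1.23. Its log2 fold was -1.44, and -3.17 without the high cell in well G02. Pdk3, an X-linked pyruvate dehydrogenase kinase, had a correlation of -0.48, medians of 0.441 and 1.495, and a log2 fold of -1.39. The other 2, Tbx3 and Klf5, belong to the naive pluripotency factors below.

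The naive pluripotency transcription factors as a group were not higher in the Dppa3-high cells. Of 13 compared, 4 had a log2 fold above 0, 0 were at least 2-fold higher and 2 were at least 2-fold lower, with a list median of -0.15. Over all 3840 genes the median was 0.03, 52.9% were above 0, 5.68% were at least 2-fold higher and 3.41% at least 2-fold lower. Klf5 ran from 0 to 1.17 with a median of 0.208 in the high and from 0.346 to 2.18 with a median of 0.725 in the low cells (log2 fold -1.30), and all 15 low cells were above the high median. Tbx3 was read in 5 high and 13 low cells, with medians of 0 and 0.442 (log2 fold -1.24, or -1.91 without the high cell in well F05). Inside the X-Mus X-Cast cells Klf5 had a log2 fold of -1.02 and Tbx3 of -1.24, whereas inside the single-X cells neither was past 2-fold (-0.52 and -0.08).

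The other naive factors were within 2-fold, and their ranges overlapped. Nanog, which lies within 1 Mb of Dppa3, ran from 0 to 4.35 (median 2.07) in the high and from 0.111 to 5.39 (median 1.55) in the low cells, a log2 fold of -0.14 that was 0.02 without the low cell in well G06. Zfp42, encoding REX1, had medians of 15.654 and 17.002 (log2 fold -0.41), Esrrb 1.80 and 1.88 (0.04), Tfcp2l1 11.5 and 14.8 (-0.31), and the X-linked Nr0b1 5.15 and 7.65 (-0.52). For Tfcp2l1, 7 low cells were above every high cell. Nr5a2 had medians of 0 and 0.222 and the lowest fold of the remaining factors (-0.57). Klf4 (0.08), Prdm14 (-0.07), Tcl1 (0.13), Zfp281 (-0.15) and Stat3 (0.16) were closer to 0, and leaving out 1 cell turned the sign of each of them and of Esrrb. The 14 general pluripotency genes compared had a median of -0.16 (0.15 inside the single-X cells), with 0 at least 2-fold higher (5.68% of all genes) and 0 at least 2-fold lower (3.41%). Pou5f1 had medians of 2.01 and 2.12 (log2 fold -0.13), and L1td1, an RNA-binding protein derived from a LINE element, had the lowest fold of this list at -0.66.

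The DNA methylation machinery was compared because DPPA3 acts on UHRF1. Of 12 listed genes in the table, 7 were compared, and 0 were at least 2-fold higher and 0 at least 2-fold lower, with a list median of 0.03. Of all genes, 5.68% were higher and 3.41% lower by that measure. Uhrf1 itself ran from 0.102 to 5.98 (median 2.29) in the high and from 0.594 to 4.74 (median 2.55) in the low cells, a log2 fold of -0.20. Dnmt1, the maintenance methyltransferase, had medians of 0.559 and 0.357 (log2 fold 0.82), and 12 of 15 high cells were above the low median.

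The same number of high cells, 12 of 15, were above the low median for Tet2, a 5-methylcytosine dioxygenase, with medians of 1.47 and 0.615 (log2 fold 0.72). Tet1 had medians of 4.14 and 3.59 (0.03), the cofactor Dnmt3l 6.83 and 9.22 (-0.40), and the de novo methyltransferase Dnmt3b 0.809 and 1.20 (0.14). The cell in well C01 held 43.9% of the Dnmt3b level of the high group, and without it the log2 fold was -0.59. Dnmt3a had 2 counts in the high and 0 in the low cells and was not compared.

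Of the 16 primed and formative epiblast genes in the table, 7 were compared, and Fgf5 and Fgf8 had no read in any of the 47 cells. Of these 7, 6 had a log2 fold above 0 (52.9% of all genes), 3 were at least 2-fold higher (5.68% of all genes) and 0 at least 2-fold lower, with a list median of 0.93. This median rests largely on single cells. For each of the 7 genes except Lef1, 1 cell held over 25% of the summed level of its group, from 25.3% for Nodal to 43.9% for Dnmt3b. The rank correlations of the 7 genes with Dppa3 ran from -0.19 for Dnmt3b to 0.38 for Lef1. Lef1, a transcription factor of Wnt signalling, was read in 10 high and 7 low cells, with medians of 1.03 and 0 (log2 fold 1.55). Its difference lay on the Cast allele, with allelic log2 folds of 2.12 for Cast and -0.11 for Mus. Pim2, an X-linked kinase, had medians of 0.408 and 0.238 (1.34), and the cell in well C01 held 27.2% of its level in the high group. Without that cell its log2 fold was 0.98, which is short of 2-fold.

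Lefty1, a secreted inhibitor of Nodal, was unevenly distributed in both groups. It ran from 0 to 86.0 with a median of 6.77 in the high and from 0 to 72.7 with a median of 0.611 in the low cells, and 12 of 15 high cells were above the low median. Its log2 fold was 1.42, and 2.94 without the low cell in well E03. The high cell in well D02 held 29.8% of its level in the high group and 32.9% of that of the related Lefty2 (log2 fold 0.93). Nodal itself had medians of 0.506 and 0.239 and a log2 fold of -0.14. The list of LIF, BMP and Wnt targets shares Lef1, Lefty1, Lefty2 and Nodal with this list. Of its 9 genes compared, 7 were above 0 (52.9% of all genes), 2, Lef1 and Lefty1, were at least 2-fold higher (5.68% of all genes) and 0 at least 2-fold lower (3.41%). Its median was 0.60, and its other members included Pim1 (0.60), Junb (0.75) and Lifr (-0.29).

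Of the primordial germ cell genes, 7 were compared, 5 were above 0 (52.9% of all genes), and 1 was at least 2-fold higher (5.68% of all genes), with a list median of 0.60. This 1 gene was Tfap2c. Prdm1, encoding BLIMP1, was read in 11 high and 7 low cells, with medians of 0.402 and 0 (log2 fold 0.98, or 1.98 without the low cell in well G06, which takes it past 2-fold). Ifitm3, an interferon-induced membrane protein also known as Fragilis, was read in every cell of both groups, with medians of 25.7 and 17.4 (0.60), and 12 of 15 high cells were above the low median. Prdm14 and Dppa4 had log2 folds of -0.07 and -0.02.

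The germ cell genes that are repressed by promoter methylation in somatic cells had a list median of -0.37 over 8 genes compared, which turned to 0.23 inside the single-X cells. Of the 8, 2 were above 0 (52.9% of all genes), 0 at least 2-fold higher (5.68%) and 2 at least 2-fold lower (3.41% of all genes). The 2 were Fkbp6 and Smc1b, a meiotic cohesin subunit with medians of 0.153 and 0.513 (log2 fold -1.21). 1 low cell, in well B06, held 25.3% of the Smc1b level of its group, and without it the log2 fold was -0.89, short of 2-fold. Dazl had medians of 0.153 and 0.120 (-0.27), and the low cell in well E03 held 47.6% of its level in the low group. Its log2 fold was 0.56 without that cell and -1.91 without the high cell in well E05.

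**Figure D4:**
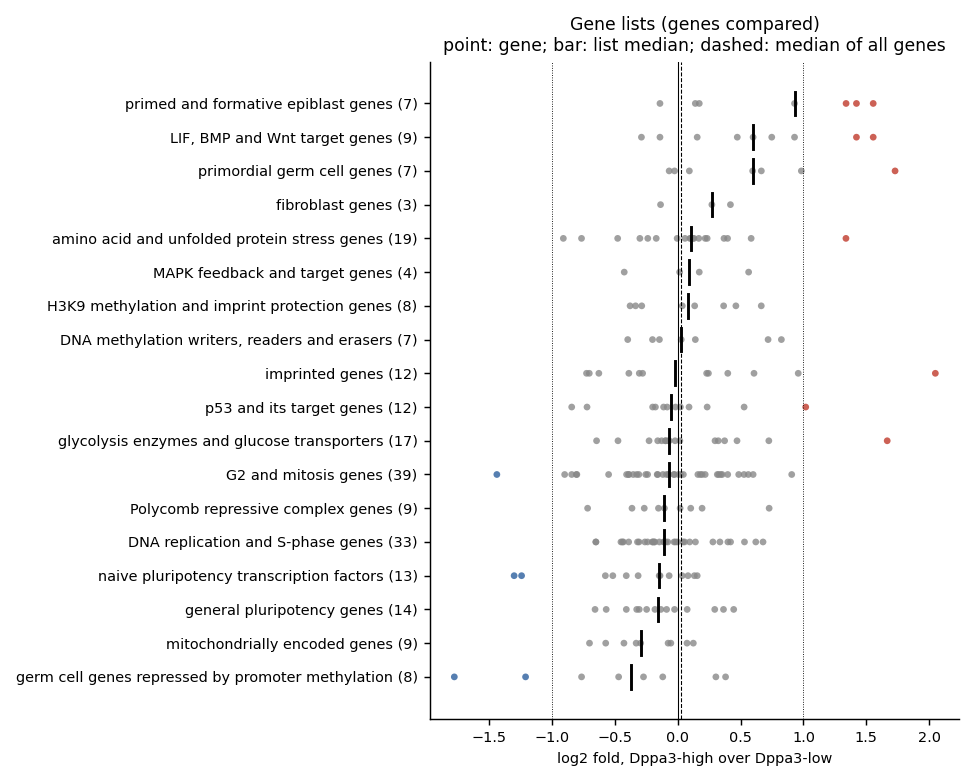
log2 folds of the mean level in the Dppa3-high over the Dppa3-low cells (x axis) for the genes of each list with at least 3 genes compared (y axis, with the number compared). Points are genes, red at least 2-fold higher and blue at least 2-fold lower, and black bars are list medians. Of the lists drawn, the primed and formative epiblast genes have the highest median, 0.93, and the germ cell genes the lowest, -0.37. For each primed and formative gene drawn except Lef1, 1 cell held over 25% of the summed level of its group.

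Imprinted genes had a list median of -0.02 over 12 genes, with 6 above 0 (52.9% of all genes). Peg3 was the 1 gene at least 2-fold higher (5.68% of all genes), and 0 were at least 2-fold lower (3.41%). Impact, another paternally expressed gene, had a log2 fold of 0.96, and all 15 high cells were above the low median. The H3K9 methylation and imprint protection genes (8 compared, median 0.09), the Polycomb genes (9, -0.11) and the MAPK feedback genes (4, 0.09) had 0 genes at least 2-fold higher or lower, beside the same shares of all genes.

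The cell cycle lists had medians slightly below that of all genes, 0.03. The 33 S-phase genes had a median of -0.11, with 11 above 0 (52.9% of all genes) and 0 at least 2-fold higher (5.68% of all genes) or lower (3.41%). The 39 G2 and mitosis genes had a median of -0.07, with 17 above 0 and Cdc25c as the 1 gene at least 2-fold lower and 0 at least 2-fold higher. Inside the single-X cells the median of these 39 genes was 0.13, where that of all genes was 0.09. The summed S-phase level was 0.947% of the counts in the median high cell (0.644% to 1.47%) and 0.966% in the median low cell (0.717% to 1.49%). That of the G2 and mitosis genes was 1.05% (0.853% to 2.17%) and 1.31% (0.761% to 1.75%).

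The glycolysis, amino acid stress and p53 lists each held 1 gene at least 2-fold higher (5.68% of all genes) and 0 at least 2-fold lower (3.41%). Glycolysis enzymes and glucose transporters had a median of -0.07 over 17 genes, with Ldhb the 1 gene at least 2-fold higher, while Ldha, encoding the other main lactate dehydrogenase subunit, had a log2 fold of -0.07. The amino acid and unfolded protein stress genes had a median of 0.10 over 19 genes. Aldh18a1, an enzyme of proline synthesis, was the 1 gene of that list at least 2-fold higher, with medians of 3.02 and 0.417 (log2 fold 1.34). The p53 list had a median of -0.05 over 12 genes, with Zmat3 at 1.02 (0.76 without the high cell in well F02) and Cdkn1a at 0.02. The 9 mitochondrially encoded genes had a median of -0.29 with 2 above 0, in the direction of the lower mitochondrial share given above. The 56 cytosolic ribosomal protein genes, a list added after the data were seen, had a median of 0.03.

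Few genes of differentiated or 2-cell-like cells could be compared. Of 19 early lineage genes in the table, 1 was compared, Lamb1, a laminin chain (log2 fold 1.29, or 0.98 without the high cell in well B01), and 6 had no read in any of the 47 cells, Gata6, Pdgfra, Cdx2, Elf5, Hand1 and Tfap2a. Their summed level was 0.0245% in the median high cell (0% to 0.159%) and 0.0144% in the median low cell (0% to 0.0751%). Of the fibroblast genes, 3 were compared, Vim (0.42), Fn1 (0.27) and Sparc (-0.14), with a summed level over all 21 of 0.154% (0.0377% to 0.189%) in the high and 0.111% (0.0538% to 0.196%) in the low cells. Of the 29 genes of the 2-cell list, 2 were in the table used here, and Eif1a alone was compared (-0.09).

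Few neighbours of Dppa3 could be compared. Of 12 genes in the table within 1 Mb, 5 were compared, 4 were above 0, and 0 were at least 2-fold higher (5.68% of all genes) or lower (3.41%), with a median of 0.08. Gdf3, the nearest of these, had medians of 7.65 and 7.74 (log2 fold 0.08), Phc1 of 2.14 and 2.06 (0.02), and Slc2a3 of 3.46 and 2.24 (0.37). Necap1 had the largest fold, 0.82, with medians of 0.450 and 0.386.

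The median X-linked gene was lower in the Dppa3-high cells, while as many X-linked genes were at least 2-fold higher as lower. Both shares were above those of all genes, that of the lower genes by more. Of 103 compared, 33 had a log2 fold above 0, against 52.9% of all genes, with a median of -0.22. At least 2-fold higher were 8 (7.77%, against 5.68% of all genes) and at least 2-fold lower also 8 (7.77%, against 3.41%). The X-linked share of the counts was 1.38% in the median high cell (1.02% to 2.37%) and 1.82% in the median low cell (0.788% to 2.40%). When the cells were ranked inside each X class, the median of the X-linked genes was -0.05 among the X-Mus X-Cast cells and 0.10 among the single-X cells. The medians of all 3840 genes in those comparisons were -0.02 and 0.09. Inside each class the X-linked genes thus lay close to the median of all genes.

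Ranking inside the classes also gave a pair of comparisons that share no cell. Of the 23 cells with both X chromosomes, the 7 highest had Dppa3 levels of 6.60 to 30.2 and the 7 lowest of 0 to 1.90. Of the 24 single-X cells, the 8 highest had levels of 12.2 to 71.1 and the 8 lowest of 0 to 4.74. Of the 361 genes at least 2-fold higher inside the X-Mus X-Cast cells, 62.3% were above 0 inside the single-X cells, against 55.7% of all 3840 genes. Of the 438 genes at least 2-fold higher inside the single-X cells, 50.5% were above 0 inside the X-Mus X-Cast cells, against 49.0% of all genes. For the genes at least 2-fold lower, 48.1% of 347 were below 0 in the single-X cells (44.3% of all genes) and 52.1% of 267 were below 0 in the X-Mus X-Cast cells (51.0%). Most genes past 2-fold in one class were not past 2-fold in the other.

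Genes past 2-fold in both classes went in the same and in opposite directions. 75 genes were at least 2-fold higher inside both classes, which is 20.8% of the 361 and 17.1% of the 438, where 11.4% and 9.40% of all genes were. They included Ankhd1, Diaph1, Peg3, Gstm1, Primpol, Tfap2c, Ldhb, Lef1, Lefty1, Lefty2, Hesx1 and Rhox6. 43 genes were at least 2-fold lower inside both, 12.4% of the 347 and 16.1% of the 267, where 6.95% and 9.04% of all genes were. Among them were Cdc25c, Elp6, Foxn3, Kdm6a, Kdsr, Ncln and Ormdl1. In opposite directions, 54 genes were at least 2-fold lower inside the class with both X chromosomes and at least 2-fold higher inside the single-X cells. These were 15.6% of the 347, more than the 43 that were lower in both, and 12.3% of the 438, where 11.4% and 9.04% of all genes were. Another 35 were higher in the former and lower in the latter, 9.70% of the 361 and 13.1% of the 267, where 6.95% and 9.40% of all genes were. All 4 shares in opposite directions were thus also above those of all genes. Of the 12 higher genes named by fold, 12 were above 0 inside the X-Mus X-Cast cells and 11 inside the single-X cells, with Ada the exception at -0.31. Of the 12 lower genes, 11 and 12 were below 0, with Smtnl1 the exception at 0.26. Past 2-fold in the same direction were 11 of the 12 higher genes inside the X-Mus X-Cast cells, 8 inside the single-X cells and 7 inside both. Of the 12 lower genes these numbers were 6, 11 and 6. These cells largely overlap those that chose the 24 genes.

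**Figure D5:**
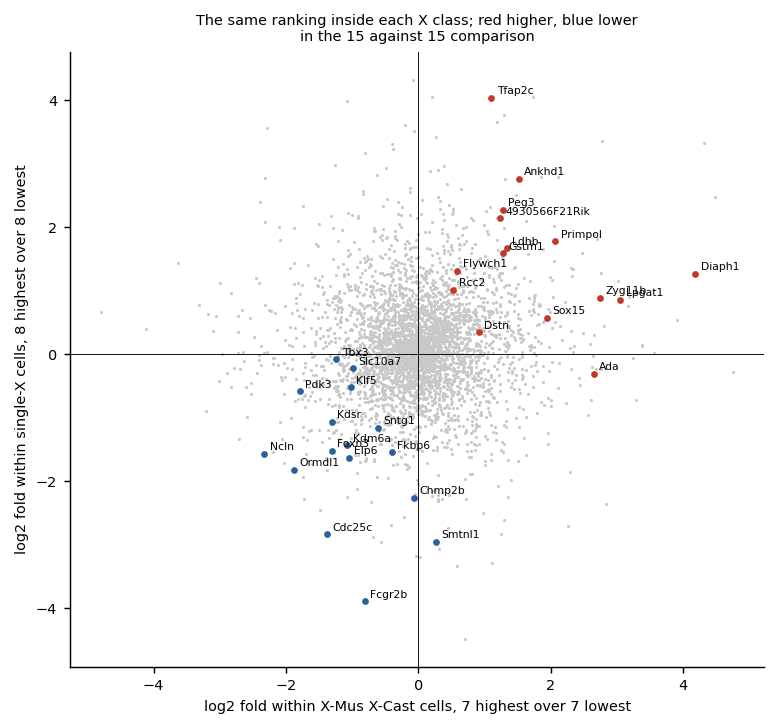
log2 folds between the highest and lowest cells by Dppa3 inside the 23 X-Mus X-Cast cells (x axis, 7 against 7) and inside the 24 single-X cells (y axis, 8 against 8) for 3840 genes. Red and blue points are the named genes higher and lower in the 15 against 15 comparison, of which Ada and Smtnl1 lie on opposite sides of 0 on the 2 axes.

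The Cast and Mus reads of the named genes gave the same direction in most cases. For the 12 higher genes the fold was above 0 with Cast reads alone in 12 and with Mus reads alone in 12, and for the 12 lower genes it was below 0 in 11 and 12. Both kinds of read come from the same cells, and the genes were chosen by the fold of their sum, which favours such agreement. In addition, 4930566F21Rik had 4 Cast reads in the high and 0 in the low cells, and Peg3 29 and 0 Mus reads. Those allelic folds rest on the floor of 3 counts.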

How the data were processed

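Allele-resolved RNA-seq counts of 47 single iPSCs were analysed. The authors deposited whole-number counts per gene, allele and cell, not normalized, summed over SNP positions, without molecular identifiers. The submitters' processing notes name STAR 2.5.3a, SAMtools and mm10. For their other plates the methods describe a SNP-masked genome, SNPsplit and removal of genes with few SNPs. How this plate was mapped is not described separately. Strand was not stated, so overlapping and antisense genes cannot be told apart.

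From these counts, both alleles were summed and divided by the total of the cell times 10000 (numpy 2.4.6, pandas 2.3.3 and scipy 1.17.1 under Python 3.11.15, with figures by matplotlib 3.10.9). Genes were placed on GRCm38 (GENCODE M21, RefSeq). A fold is the ratio of group means, without a pseudocount. A group without reads was set to 3 counts over the group. Genes needed a mean of 5 counts and reads in 24 cells. The script was tested on simulated data.

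Named genes were the 12 highest and 12 lowest folds among genes whose medians differed the same way and for which no cell held over 25% of the level of its group, the 5 highest and 5 lowest rank correlations, members of gene lists past 2-fold, the naive and DNA methylation lists and genes within 1 Mb. The cells, gene lists and rules were chosen with earlier results of these data known. Each GEO sample is 1 cell and no culture is named, so that no test was made. Intervals are 95% Clopper-Pearson for shares and exact Poisson for summed counts, and cover counting error only. Alternatives were other group sizes, rankings by 1 allele, other scalings and filters, thinned cells, and rankings within X classes.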

Additional observations from a re-analysis of the deposited data

How the results depend on the processing

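The counts of genes at least 2-fold higher or lower depended on group size, class and scale. 10 against 10 cells gave 329 higher and 205 lower, 23 against 23 gave 144 and 67, ranking inside the X-Mus X-Cast cells gave 361 and 347, and inside the single-X cells 438 and 267. A minimum mean of 20 counts, with 1458 genes left, gave 25 and 16. The difference of mean log2 (level plus 1), which compresses low levels, gave 5 and 0. Leaving out each of the 30 cells in turn gave 202 to 253 higher and 116 to 144 lower genes. The other alternatives kept both counts within 1.5 times. Of 36 named genes past 2-fold, 34 kept their direction under each of the 16 alternatives in which they were compared. These genes were chosen by their values in the same cells, and most alternatives reuse most of those cells. Their kept directions are therefore no independent support. Ada reversed inside the single-X cells (-0.31) and Smtnl1 inside the X-Mus X-Cast cells (0.26). The list medians of the primed and formative genes (0.30 to 1.15), the primordial germ cell genes (0.09 to 0.64) and the LIF, BMP and Wnt targets (0.20 to 0.93) stayed above 0, and that of the naive factors (-0.47 to -0.08) below 0. The medians of the germ cell genes (-0.91 to 0.23), the general pluripotency genes (-0.24 to 0.15) and the DNA methylation genes (-0.22 to 0.32) changed sign under at least 1 alternative. So did those of the MAPK (-0.36 to 0.29), H3K9 (-0.12 to 0.60), amino acid stress (-0.18 to 0.40) and imprinted genes (-0.28 to 0.31). The Polycomb, glycolysis, p53, fibroblast, 2-cell, S-phase, and G2 and mitosis medians also changed sign. The autosomal denominator moved the share of higher genes among all past 2-fold from 62.5% to 55.9% and ranking inside the X-Mus X-Cast cells to 51.0%. The ratio of median totals, low over high, was between 1.04 and 1.19, and the X-Mus X-Cast share of the high group between 26.7% and 40%. No paired analysis was possible because the cells share no replicate numbers between groups. Where the cause of a moved value is not given above, the cause was not tested. With a median of 14.8 counts per gene compared, most folds rest on few reads per cell.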
